A study of Saccharomyces cerevisiae with 6 samples.

Results

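The glutathione branch of the antioxidant defence was followed in Saccharomyces cerevisiae, baker's yeast, as cultures grown without oxygen were aerated. It was represented by 9 genes chosen by name: the peroxidase genes GPX1, GPX2 and HYR1, the synthesis genes GSH1 and GSH2, the reductase gene GLR1, the glutaredoxin genes GRX1 and GRX2, and the transferase gene GTT2. All 9 were found, each on 1 feature, among 6470 genes or unnamed features of the array. Each of the 9 had a value in all 5 aerated samples, and 7 of them, all but GPX2 and GTT2, had one in the control sample.

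The samples were total RNA from cells aerated for 5, 10, 20, 60 or 120 min, each hybridised on 2-colour arrays beside pooled RNA of the cultures before air was given (0 min). In 1 further sample, called here the self-hybridisation, the pool was compared with itself. The cultures of all groups had grown to exponential phase in sealed, nitrogen-purged bottles of synthetic complete medium that was treated with sodium dithionite and held ergosterol, unsaturated fatty acids and amino acids. The labels name no strain or genotype. They conflict in places, since the protocol for extracting the 60 min RNA gives 20 min of aeration and the 5 min sample carries the description of the control slide, so each sample was assigned by the source given for its aerated channel. Each aerated sample came from a flask of its own and joins a dye-swap pair of arrays, per the design text, so no time is replicated and a value at a single time has no error and no test. The number of arrays limits the precision.

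Values are log2 ratios of aerated RNA over the anaerobic pool, so that 1 is a 2-fold higher and -1 a 2-fold lower level. The log base was read from the values and the direction from the sample titles, and neither is stated by the labels. Of the aerated samples, the one taken at 60 min stood apart. At 60 min 24.3% of genes were at least 2-fold from the pool and log2 ratios had a median absolute deviation of 0.551, against between 2.09% and 4.96% and between 0.183 and 0.243 in the other aerated samples. In the self-hybridisation 4.0% of 3521 genes lay 2-fold or more from 0, with a median absolute deviation of 0.241.

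Glutathione is a cysteine-containing tripeptide that keeps protein thiols reduced and serves as a reductant for enzymes that destroy peroxides. Gsh1 and Gsh2 make it in consecutive steps, Glr1 returns its oxidised form to the reduced form with NADPH, glutaredoxins use it to reduce disulfides, and transferases attach it to reactive compounds. In yeast the glutathione peroxidase family are thiol peroxidases, and Hyr1, also called Gpx3 or Orp1, senses hydrogen peroxide and oxidises the transcription factor Yap1. Yap1, often with Skn7, drives many antioxidant genes, GPX2 and GSH1 among its known targets.

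GPX2 (YBR244W) was the only one of the 9 genes to reach a 2-fold difference from the anaerobic pool, and it did so at every time. Its log2 ratio was 2.72, 4.85, 5.57, 1.20 and 1.36 after 5, 10, 20, 60 and 120 min of air. These are levels 6.61, 28.9, 47.4, 2.29 and 2.56 times that of the pool. Had the deposited values been log2 rather than natural logs, the same folds would be 3.70, 10.3, 14.5, 1.78 and 1.92. GPX2 climbed through the 3 early samples and stood far lower, though above the pool, in both late ones. Counted from the highest gene, its rank was 3 of 6115 genes at 5 min, 3 of 6091 at 10 min and 1 of 6292 at 20 min. By absolute size, which needs no direction, its rank was 9, 3 and 1 in those samples, 993 of 5883 at 60 min and 65 of 6264 at 120 min. At 60 min 92.6% of genes lay below it and at 120 min 99.5% did.

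Across all 5 times GPX2 was the single gene of 5771 that was at least 2-fold above the pool in each of them (0.0173% of the genes measured at all times), while 4 genes were at least 2-fold below it in each (0.0693%) and 11 were 2-fold away in either direction at all times (0.191%). With the direction turned in all samples, GPX2 would be the single gene 2-fold below at all times, and with the values read as log2 it would fall short of 2-fold at 60 and 120 min. By comparison, 29.3% of those genes were 2-fold from the pool at 1 or more times, and of the 9 glutathione genes 1 was (2 with each sample centred on its median and 3 with the samples scaled to a common spread). That count over all times was added after the data were seen. At single times the count of 2-fold genes was likewise 1 of 9, against shares of all genes of 2.09%, 4.96%, 4.74%, 24.3% and 3.19% in time order. At 60 min, where such genes are common, 1 of 9 is no more than the background. With GPX2 set aside, 0 of the 40 values of the other 8 genes reached 2-fold, and they ranged from -0.93 to 0.98. Over all 9 genes, GPX2 included, the count at 60 min was 2 with each sample centred on its median and 0 when the samples were scaled to a common spread.

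**Figure D1:**
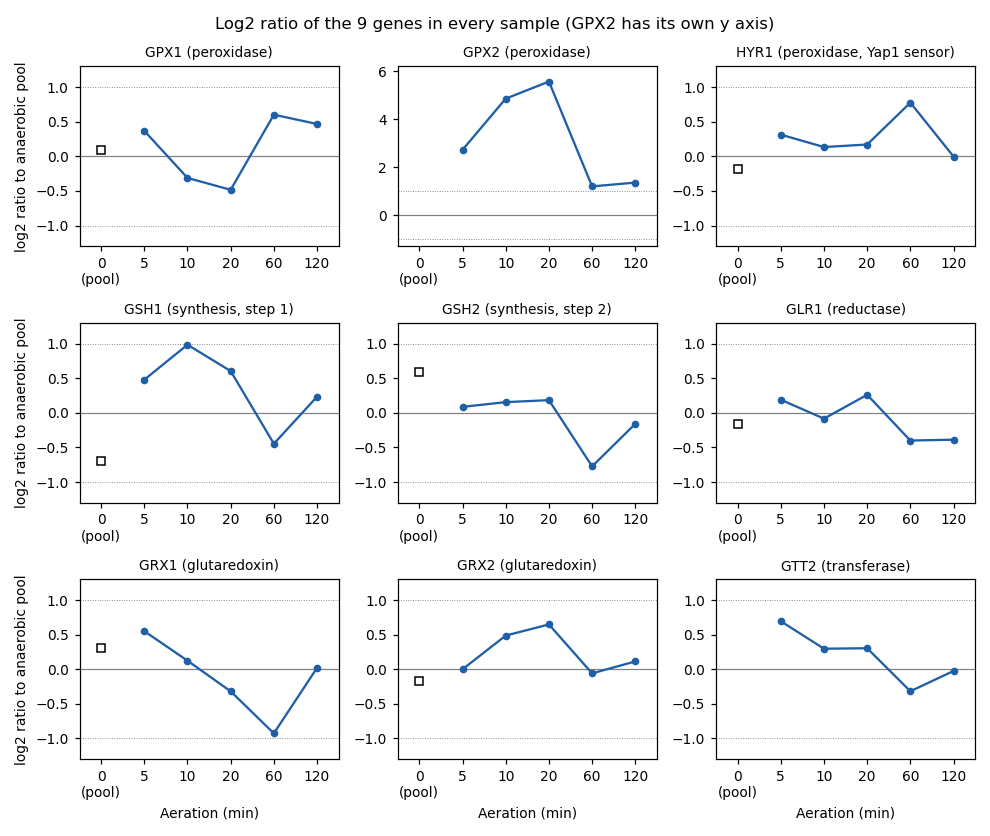
Log2 ratio to the anaerobic pool (y axis) against minutes of aeration (x axis, evenly spaced) for each of the 9 genes. Filled points are the aerated samples, 1 per time, open squares are the self-hybridisation, which has no value for GPX2 and GTT2, and dotted lines mark 2-fold. GPX2 peaks at 5.57 at 20 min, while every other gene stays between -0.93 and 0.98.

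The other peroxidase genes took a course unlike that of GPX2. GPX1 (YKL026C), whose product acts on organic and hydrogen peroxides, had log2 ratios of 0.37, -0.31, -0.48, 0.60 and 0.47 in time order, beside 0.09 in the self-hybridisation. It was thus lowest at 20 min, when GPX2 was highest, as were 15.7% of all genes measured at every time. HYR1 (YIR037W), the peroxide sensor of Yap1, had 0.31, 0.13 and 0.17 over the first 20 min, 0.78 at 60 min and the level of the pool at 120 min (1.00-fold), beside -0.18 in the self-hybridisation. Its 60 min value was the highest, but ratios were widely spread in that sample, where 81.9% of genes lay below HYR1. At 5 min 86.7% did.

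The distance between the peroxidase genes can be read within each sample. The log2 ratio of GPX2 minus that of GPX1 was 2.35, 5.17, 6.05, 0.60 and 0.89 in time order. GPX2 minus HYR1 was 2.41, 4.72, 5.40, 0.42 and 1.36. Both differences were above 0 in 5 of 5 samples. HYR1 minus GPX1 lay between -0.47 and 0.65, above 0 in 3 of 5 samples. The features of the 3 related genes gave very unequal ratios. The probe sequences were not used here, so shared hybridisation among these genes was not tested.

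In glutathione synthesis, GSH1 had a higher log2 ratio than GSH2 in every aerated sample. GSH1 (YJL101C), which encodes gamma-glutamylcysteine synthetase, the rate-limiting enzyme of glutathione synthesis, had log2 ratios of 0.48, 0.98 and 0.60 in the 3 early samples, then -0.45 at 60 min and 0.23 at 120 min. Its 10 min level was 1.98 times that of the pool, and 97.6% of genes lay below it in that sample. GSH1 was above the pool in the 3 early samples and at 120 min, and below it at 60 min. In the self-hybridisation GSH1 read -0.69, further from 0 than 4 of its 5 aerated values.

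GSH2 (YOL049W), which encodes glutathione synthetase, moved less. Its log2 ratio was 0.09, 0.15 and 0.18 at 5, 10 and 20 min, -0.77 at 60 min and -0.16 at 120 min, beside 0.59 in the self-hybridisation. The early values were close to the pool and the 60 min value was the only one past its own self-hybridisation reading. GSH1 minus GSH2 was 0.39, 0.83, 0.42, 0.33 and 0.39 from 5 to 120 min, above 0 in 5 of 5 samples, with a mean of 0.47 ± 0.20 (SD, n = 5), but was -1.28 in the self-hybridisation. That difference between the genes in the control sample is larger in size than in any aerated sample and runs the other way.

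GLR1 (YPL091W), the glutathione reductase gene, had the narrowest course of the 9 genes. Its log2 ratios were 0.19, -0.08, 0.26, -0.40 and -0.39 in time order, beside -0.16 in the self-hybridisation. Its range over the aerated samples was 0.66, against a median range of 0.935 over all genes measured at every time. At 120 min 13.2% of genes lay below GLR1.

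The glutaredoxin genes GRX1 and GRX2 encode similar small dithiol enzymes, and their ratios ran in different directions over the first 20 min. GRX1 (YCL035C) had log2 ratios of 0.55, 0.12, -0.32, -0.93 and 0.02 in time order, beside 0.31 in the self-hybridisation. Its values dropped at each step to 60 min. GRX2 (YDR513W), which gives most of the glutaredoxin activity of the cell, was level with the pool at 5 min (1.0-fold) and had 0.49, 0.65, -0.06 and 0.11 in the 4 later samples, beside -0.16 in the self-hybridisation. At 20 min 93.7% of genes lay below GRX2 and 18.1% below GRX1.

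GRX1 minus GRX2 was 0.55, -0.36, -0.97, -0.87 and -0.09 in time order, and 0.48 in the self-hybridisation. Its mean over the aerated samples, -0.35 ± 0.62 (SD, n = 5), was smaller than its spread. GTT2 (YLL060C), a glutathione transferase gene, was highest at the first time. Its log2 ratios were 0.69, 0.30, 0.30, -0.32 and -0.02 in time order. At 5 min 97.0% of genes lay below GTT2, a higher place than that of any of the 9 genes in this sample other than GPX2.

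**Figure D2:**
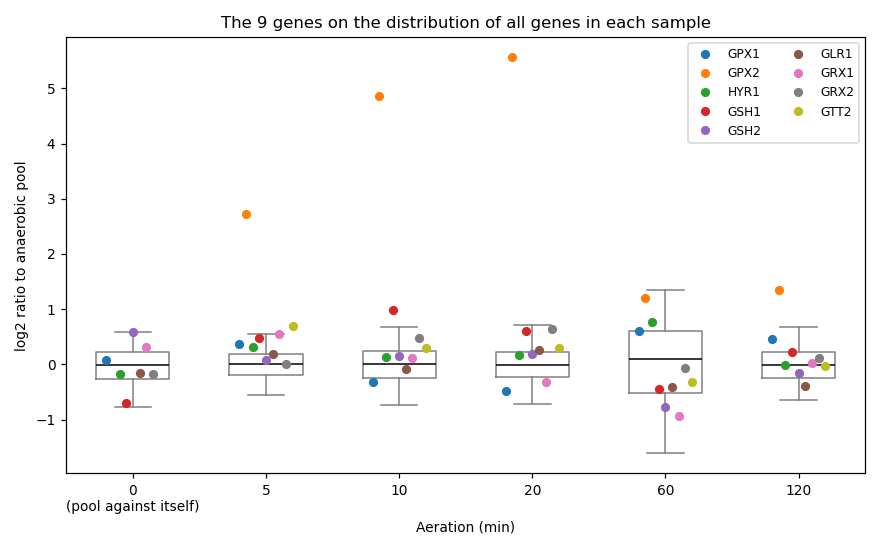
Log2 ratio to the anaerobic pool (y axis) of the 9 genes, as coloured points, over the distribution of all genes (boxes span the quartiles with the median as a line, whiskers the 5th to 95th percentile) in each sample (x axis, minutes of aeration). The box at 60 min is the widest, with a median absolute deviation of 0.551, and GPX2 lies within its whiskers there but above them at 5, 10, 20 and 120 min.

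The 9 genes were mostly above the pool early and mostly below it at 60 min. At 5 min 8 of 9 were above 0, against 50.1% of all genes, with a median of 0.37 over the 9 genes against 0.00 over all genes. At 10 min 7 of 9 were above 0 (50% of all genes), and at 20 min 7 of 9 (49.8%). At 60 min 3 of 9 were above 0, against 54.4% of all genes, with medians of -0.32 and 0.09. At 120 min 5 of 9 were above 0, against 48.6% of all genes.

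The lowest of the 5 values fell at 60 min for 7 of the 9 genes, as it did for 33% of all genes, and the highest fell at 20 min for 4 of the 9, against 13.3% of all genes. The exceptions at 60 min were GPX1 and HYR1, whose highest value fell there, as it did for 40% of all genes. The part of the broad spread of the 60 min sample in the low values there was not tested. Of the 35 aerated values of the 7 genes with a control reading, 18 were further from 0 than the gene's own reading in the self-hybridisation. The same count was not made over all genes, so 18 of 35 has no background to be set against.

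Values were averaged over the 5 aeration times, with the separate flasks standing in for replicates. GPX2 had the highest mean log2 ratio, 3.14 ± 0.65 (limma's SE, n = 5). It did not pass the test over all genes (limma, adjusted p = 0.121, unadjusted p = 0.00144), and it was higher than the pool in 5 of 5 samples. In limma 0 of 5771 genes passed at an adjusted p of 0.05 (0%), while 814 had an unadjusted p under 0.05 (14.1%), GPX2 alone of the 9 glutathione genes. The change with time, from 5.57 to 1.20, counts as spread in this test. Every SE of a mean, slope or contrast, here and below, is limma's, with each gene's variance drawn toward that of all genes. Such an SE is not that of the gene's own values alone, whose SD over the times was 1.9971 for GPX2. With limma's array weights, under which the 60 min sample had a weight of 0.154, GPX2 passed at a mean of 3.91 ± 0.53 (SE) and an adjusted p of 0.00713, among 552 genes. With the 60 min sample left out instead, GPX2 did not pass, at a mean of 3.63 (limma, adjusted p = 0.062).

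The means of the other 8 genes lay close together. GSH1 came next at 0.37 ± 0.21 (SE, n = 5), followed by HYR1 at 0.28 ± 0.15, GRX2 at 0.24 ± 0.15, GTT2 at 0.19 ± 0.17 and GPX1 at 0.13 ± 0.19. GLR1, GSH2 and GRX1 had means of -0.08 ± 0.15, -0.10 ± 0.17 and -0.11 ± 0.21. None of the 8 passed in limma, with adjusted p between 0.462 and 0.865. From GSH1 down, each mean differed from the next by at most 0.213, less than the SD of any of these genes over the times, so their order is not resolved. The 95% intervals allow means as high as 0.85 for GSH1 and as low as -0.60 for GRX1.

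The median of the 9 means was 0.19, against 0.00 over all 5771 genes, and 6 of 9 were above 0 against 50.5% of all genes. Without the 60 min sample 8 of 9 were above 0, against 48.3% of all genes, with GSH2 at 0.07 and GRX1 at 0.09. The mean of GSH1 passed with array weights, at 0.65 ± 0.14 (SE, adjusted p = 0.0244). With the 60 min sample left out instead, GSH1 did not pass, at 0.57 (limma, adjusted p = 0.0885). It passed with the self-hybridisation reading subtracted, at 1.06 ± 0.20 (adjusted p = 0.00931). GSH2 passed under that subtraction in the other direction, at -0.69 ± 0.17 (limma, adjusted p = 0.0224). The single control array enters every value of that fit, and the readings subtracted were -0.69 for GSH1 and 0.59 for GSH2. Passing genes were common in the weighted and the subtracted fits. Under subtraction 2 of 7 glutathione genes passed, beside 942 of 3485 genes. With array weights 2 of 9 passed, beside 552 of 5771 genes.

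**Figure D3:**
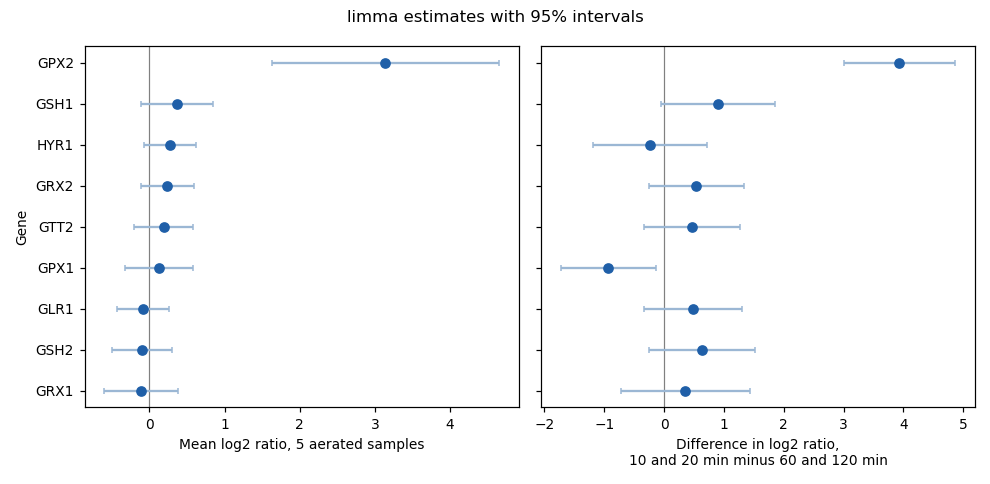
limma estimates on the log2 scale (x axes) for each of the 9 genes (y axis), with bars for the 95% interval. The left panel is the mean over the 5 aerated samples and the right panel the 10 and 20 min samples minus the 60 and 120 min samples. GPX2 lies at 3.14 and 3.93, and the intervals of the other 8 genes include 0 except that of GPX1 on the right.

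Change over time was asked in 3 ways, and none gave a call for the 9 genes over all genes tested. In the slope on log2 of minutes, GPX2 had -0.62 ± 0.35 per doubling of time (SE, n = 5) and the other 8 genes lay between -0.18 and 0.11. Slopes were above 0 for 2 of 9, against 51.7% of all genes. All 9 had an adjusted p of at least 0.936 in limma, where 1 of 5771 genes passed (0.0173%), and 0 of 9 had an unadjusted p under 0.05, against 2.79% of all genes. The values of GPX2 went up and then down, a course that a straight slope does not describe. In the difference of the 60 and 120 min samples minus the 5 and 10 min samples, GPX2 had -2.51 ± 0.71 (SE, n = 2 against 2 samples; limma, adjusted p = 0.788). In that contrast 0 of 5771 genes passed (0%) and 208 had an unadjusted p under 0.05 (3.6%), among them GPX2. The difference was above 0 for 2 of 9, GPX1 and HYR1, against 51.8% of all genes.

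The third contrast was the 10 and 20 min samples minus the 60 and 120 min samples. It was chosen knowing that some of the 9 genes, GPX2 among them, peak at 10 to 20 min. Its values, counts, ranks and p-values for the 9 genes, here and in the next paragraph, are a description and no test. GPX2 had 4.85 and 5.57 at 10 and 20 min against 1.20 and 1.36 at 60 and 120 min, a difference of 3.93 ± 0.38 (SE). It had the smallest unadjusted p of the 5771 genes, 5.22e-05 in limma, and an adjusted p of 0.301. GPX1 was at -0.31 and -0.48 at 10 and 20 min against 0.60 and 0.47 at 60 and 120 min, a difference of -0.93 ± 0.32 (limma, unadjusted p = 0.0281, adjusted p = 0.862). The values of GPX1 at 10 and 20 min lay below those at 60 and 120 min, the reverse of GPX2. The times did not overlap in this contrast for 7 of the 9 genes, against 36.1% of all genes.

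GSH1 had a difference of 0.90 ± 0.39 in the same contrast, GSH2 0.63 ± 0.36, GRX2 0.54 ± 0.32, GLR1 0.48 ± 0.33, GTT2 0.47 ± 0.33 and GRX1 0.36 ± 0.44. HYR1, like GPX1, was below 0, at -0.23 ± 0.39. In all, 7 of 9 genes were higher at 10 and 20 min than at 60 and 120 min, against 46.9% of all genes, and 0 of the 5771 genes passed (0%), with 197 at an unadjusted p under 0.05 (3.41%). Scaling the samples to the same spread gave 21 genes over the whole array, GPX2 among them at an adjusted p of 0.0022. Without the 60 min sample the same 7 of 9 count was found, with HYR1 at 0.16 and GRX1 at -0.12.

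The genes with ratios nearest to those of GPX2 were ranked by the root mean square difference of log2 ratios over the 5 times, among 5289 named genes. This measure depends on the size of the ratios as well as on their course. The nearest was CUP1-1, a copper metallothionein gene, at 1.23, with 0.89, 5.56, 3.86, 0.49 and 1.92 at 5, 10, 20, 60 and 120 min. Its identical copy CUP1-2, which arrays cannot tell from it, followed at 1.40. YLR108C came next at 1.77, then BUD2 at 1.97 and STE20 at 2.17. Even the nearest was more than 1 log2 unit away, and the nearest of the other glutathione genes, GSH1, was 3.12 away. By the same measure GPX2 was 3.61 from the pool, so it had to lie far from genes that stayed under 2-fold. GSH1, with small ratios and only 0.60 from the pool, had MCM5, YKT6, ARP9, RFA1 and SSA2 at 0.20 to 0.23.

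Among the 9 genes, GLR1 and GSH2 lay nearest to each other, at 0.23. GPX1 and HYR1 were each other's nearest at 0.42, as were GSH1 and GRX2 at 0.36. GRX1 lay nearest to GSH2, at 0.32. The glutaredoxin genes were thus not each other's nearest by this measure.

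Genes of the wider glutathione pathway and its regulators were measured beside the 9. Of 35 such genes, 33 had all 5 aerated values, DUG1 and GLO4 being the exceptions. In limma 0 of 33 passed for the mean, 6 had an unadjusted p under 0.05 (14.1% of all genes did), and 13 of 33 means were above 0 (50.5% of all genes), with a median of -0.11 against 0.00 over all genes. For the slope, the late minus early and the 10 and 20 min minus 60 and 120 min differences, 0 of 33 passed in each, and 0, 0 and 1 had an unadjusted p under 0.05, against 2.79%, 3.6% and 3.41% of all genes.

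The glutathione transferase gene ECM4 was the highest of them in mean, at 0.92, 1.23, 0.95, 0.54 and 0.79 from 5 to 120 min (mean 0.89 ± 0.14, SE; limma, adjusted p = 0.0834), but it read 0.79 in the self-hybridisation, where pool meets pool. GTT1, a transferase of the endoplasmic reticulum, had a mean of 0.49 ± 0.21 (adjusted p = 0.342 in limma) and reached 1.31 at 60 min, beside 0.01 in the self-hybridisation. In the R64 annotation GTT1 is the neighbour of HYR1, and IRC24, the neighbour on the other side, stood at 0.80 at 60 min. At the other aerated times IRC24 lay between -0.16 and 0.16, and 40% of all genes had their highest value at 60 min. IRC24 was named after its values were seen. Of the 5 further transferases, 2 had a mean above 0 and 3 below (50.5% of all genes were above 0).

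Of the 6 other glutaredoxin genes, 1 had a mean above 0, against 50.5% of all genes, and their means lay between -0.35 and 0.07. GRX4, whose product takes part in iron regulation, stood at -0.56, -0.56, -0.54, -0.30 and 0.20 from 5 to 120 min, and its partner GRX3 lay between -0.64 and -0.01. Neither passed in limma (adjusted p = 0.366 for GRX4 and 0.563 for GRX3). They differ in course from GRX2, which was at 0.49 and 0.65 at 10 and 20 min.

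Among genes of transport and breakdown, ECM38, which encodes the gamma-glutamyl transpeptidase that breaks down glutathione, was above the pool in 5 of 5 samples, with 0.32, 0.53, 0.71, 0.43 and 0.08 from 5 to 120 min (mean 0.41 ± 0.14, SE; limma, adjusted p = 0.223). YCF1, the vacuolar pump for glutathione conjugates, was at -0.05, 0.41, 0.65, 0.26 and 0.25, beside -0.53 in the self-hybridisation. Of the 9 genes of that list with all 5 values, 4 means were above 0, against 50.5% of all genes. In detoxification, SFA1, of glutathione-dependent formaldehyde oxidation, had a mean of 0.26 ± 0.13 (SE) and YJL068C, an esterase that hydrolyses S-formylglutathione, 0.19 ± 0.15. In that list 3 of 4 means were above 0, against the same 50.5% of all genes.

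Cysteine supplies the thiol of glutathione, and STR2, which encodes cystathionine gamma-synthase on the route from cysteine to methionine, was the lowest of the wider genes. It stood at -0.94, -1.01, -1.35, -2.64 and -0.16 from 5 to 120 min, beside 0.07 in the self-hybridisation (mean -1.22 ± 0.31, SE; limma, adjusted p = 0.153). CYS4, a gene of the opposite route that makes cystathionine for cysteine, was at -0.07, 0.11, 0.29, -0.01 and 0.87. Of the 4 genes of the list, 3 had a mean below 0, where 50.5% of all genes had a mean above 0.

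Of the regulator genes, YAP1 had its highest values at 10 and 20 min, as GPX2 did, and a link between these genes was not tested. Values at 10 and 20 min stood clear of those at 60 and 120 min, either way, in 36.1% of all genes. YAP1 had no value in the self-hybridisation. YAP1, which encodes the oxidant-sensing activator, had log2 ratios of 0.26, 1.16, 0.97, -1.87 and 0.00 in time order. SKN7, whose product often acts with Yap1, stood at 0.11, 0.82, 0.56, 0.81 and 0.21. YBP1, which encodes the Yap1-binding protein, lay below the pool at all times, between -0.79 and -0.06. CAD1, a relative of YAP1, was at -0.18, -0.54, -0.53, 0.19 and 0.28, and MET4, the activator of sulfur genes, was within 0.01 to 0.18 except at 60 min, where it stood at -1.18. None of the 5 regulator genes passed in limma for the mean, with adjusted p of 0.208 for SKN7, 0.317 for YBP1 and between 0.71 and 0.939 for the others.

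**Figure D4:**
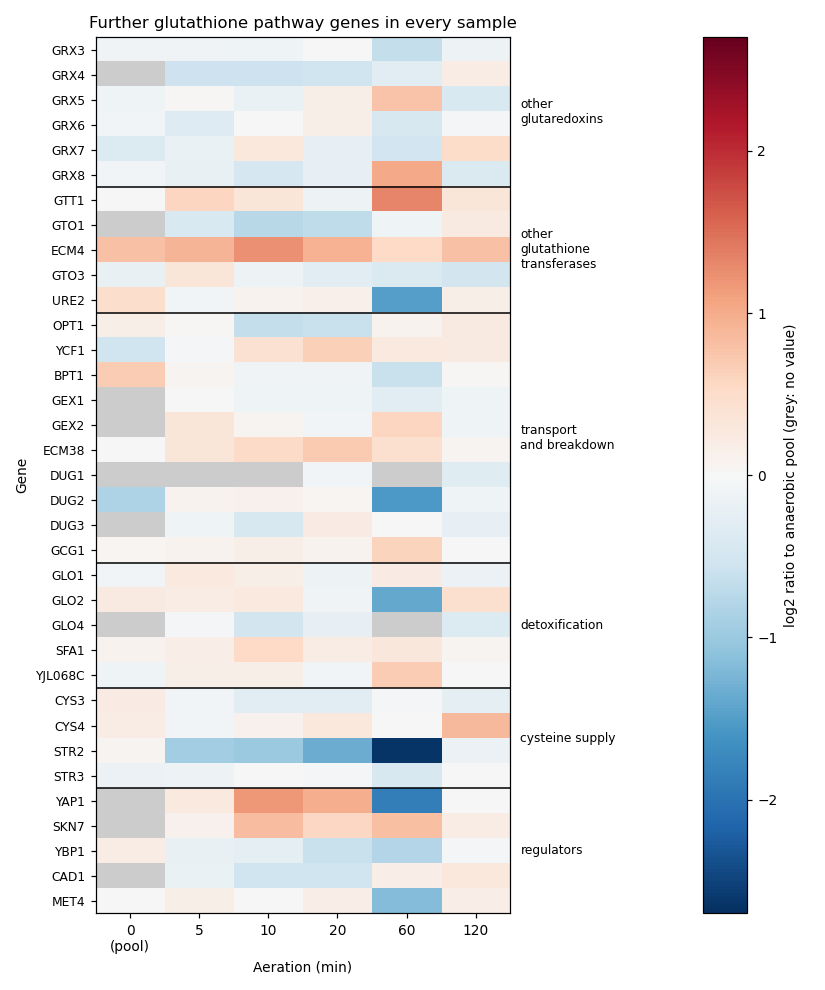
Log2 ratio to the anaerobic pool (colour, blue lower and red higher, grey no value) of 35 further genes of the glutathione pathway and its regulators (y axis, grouped by list) in each sample (x axis, minutes of aeration, with the self-hybridisation at 0). ECM4 is above 0 in every sample including the self-hybridisation, STR2 reaches -2.64 at 60 min, and YAP1 passes from 1.16 at 10 min to -1.87 at 60 min.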

How the data were processed

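Arrays with 2 colours compared aerated RNA with pooled anaerobic RNA. Per the series' design text, the authors normalized the arrays and condensed each time's dye swap into 1 deposited column. How they normalized and filtered is not given in the sources used here. The deposited values were taken as natural log ratios, since the lowest, -4.6051702, is the natural log of 0.01, and were divided by 0.6931 to give log2 ratios. The direction, aerated over pool, is likely from the titles and not settled, as the labels list both dyes for both channels. Correlations between aerated samples over genes were 0.025 or higher.

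Of 6495 features, 5754 had 1 gene symbol, 0 several and 741 none. All 5754 matched the R64 RefSeq table by gene identifier. Features of a gene were averaged (25 genes). limma 3.58.1 in R 4.3.3 was fitted to the 5771 genes with all 5 aerated values. Its tests were two-sided, p-values were adjusted by Benjamini-Hochberg over those genes (threshold 0.05), and the procedure was tested on simulated data. The pool is the control in every ratio, so tests of the mean leave out its spread and the comparisons share it.

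The genes, lists and contrasts were chosen with earlier results of these data known. All 9 genes are named. Of each further list, the text names the 2 genes of largest absolute mean and any gene 2-fold from the pool at 2 or more times, and all regulators. Alternatives were centring, scaling, array weights, a looser filter on missing values, single features, robust eBayes, subtracting the self-hybridisation, reading the values as log2, and leaving out each sample.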

Additional observations from a re-analysis of the deposited data

How the results depend on the processing

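For the mean over times, 0 genes of the array passed as reported. Passing genes numbered 65 with a common spread set for the samples (scaling), 552 with array weights and 942 of 3485 with the self-hybridisation subtracted, and leaving out 1 sample gave 0 to 25 (13 without 5 min, 25 without 60 min). Means that turned were GPX1 at -0.065, GSH2 at 0.071 and GRX1 at 0.069 with array weights, GRX1 at 0.031 with scaling and GLR1 at 0.078 with the control subtracted. With 1 sample left out, GSH2 spanned -0.17 to 0.066 and GRX1 -0.28 to 0.094, each above 0 only without 60 min, and GPX2 stayed between 2.53 and 3.63. For the slope, 1 gene passed as reported, against 0 with centring, 0 with array weights, 2 with scaling and 0 to 1 with 1 sample left out. The slope of HYR1 turned to -0.058 with scaling and -0.022 with array weights (-0.061 to 0.14 with 1 sample left out), and that of GRX2 to 0.014 with array weights.

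For late minus early, leaving out 1 sample gave 0 to 1099 passing genes, and GPX2 passed without 5 min, at -3.58 (adjusted p = 0.037), where the early side is the 10 min sample alone, assumed to vary like the others. HYR1 was at -0.13 with scaling and spanned -0.23 to 0.55, and GRX2 spanned -0.46 to 0.027. For the 10 and 20 min minus 60 and 120 min difference, scaling gave 21 genes and leaving out 1 sample 0 to 1995, with HYR1 spanning -0.62 to 0.16 and GRX1 -0.12 to 0.83. There GPX2 passed without 10, 20, 60 or 120 min, each of which leaves 1 sample on a side, assumed to vary like the others, and without 60 or 120 min all genes shared 1 estimate of the spread. The fit without 20 min sets the same samples against each other as late minus early without 5 min. These calls give no support, since the contrast was chosen knowing that some of the 9 genes peak at 10 to 20 min. Without 120 min that contrast was -0.9995 for GPX1, 1.2402 for GSH1, 0.9421 for GSH2 and 0.8284 for GRX1. These genes passed in no other setting of it. That fit leaves the 60 min sample alone on the late side and gave the upper end of the range of passing genes above. Passing was thus common over the whole array there, and no call is drawn for these genes. Of 412 values of the 9 genes under alternatives, 395 kept their direction, 17 turned and 14 passed the threshold. The counts of the 9 genes at 2-fold from the pool were 2 at 5 min, 2 at 10 min and 0 at 60 min with scaling, 2 at 60 min with centring, and 0 at 60 and 0 at 120 min with the values read as log2. The count over all times, an outcome added after seeing the data, was 2 with centring, 3 with scaling and 1 with any 1 sample left out. Causes were not tested. No paired analysis was possible because each time has 1 sample and the labels give no replicate numbers. Spot intensities were not used here, so the signal over background is unknown.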

Other observations

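The readings of GSH1 and GSH2 in the self-hybridisation were among the more extreme of that array, at -0.69 and 0.59, with 6.25% of 3521 genes below GSH1 and 95.1% below GSH2. The neighbours of GSH1 in the R64 annotation, MEF2 and LSB6, read -0.55 and -0.81 there, and the neighbours of GSH2, GAL11 and RRT8, read 0.79 and 0.23. These neighbours were named after their values were seen. In the aerated samples MEF2 stood at -0.20, 0.39, 0.22, -0.88 and 0.23 from 5 to 120 min, and LSB6 lay between -0.23 and 0.02.

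The neighbours of GPX2 in the R64 annotation, ALG7 and ISW1, did not share its course. ALG7 stood at 0.04, -0.04, -0.13, 1.08 and -0.70 from 5 to 120 min, and ISW1 at -0.32, -0.77, -0.60, -0.12 and -0.56. SSU1, the sulfite pump gene beside GLR1, stood at -1.05, -2.50, -2.16, -0.86 and -0.43, while GLR1 stayed between -0.40 and 0.26. RPS6A, the neighbour of GLR1 on the other side, lay between -0.55 and 0.16. SSU1 was named after its values were seen.

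The 60 min value minus the 20 min value was -4.37 for GPX2, -1.05 for GSH1 and -0.96 for GSH2, between -0.71 and -0.61 for GRX2, GLR1, GTT2 and GRX1, and 1.09 and 0.60 for GPX1 and HYR1. The median size of that step over 5874 genes was 0.568.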
